A study of Homo sapiens with 4 samples.

Results

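The genes that encode cyclin-dependent kinase (CDK) inhibitors were examined in CBC-treated pancreatic cancer cells, together with MTAP, the neighbour of the inhibitor genes CDKN2A and CDKN2B at chromosome band 9p21. The 8 genes were chosen by name from the 58233 Ensembl genes of the count table. They were CDKN1A, CDKN1B, CDKN1C, CDKN2A, CDKN2B, CDKN2C, CDKN2D and MTAP, and each matched a single Ensembl identifier. Both lines studied, MIA PaCa-2 and PANC-1, are long-established cultures of human pancreatic carcinoma, and the labels give their genotype as wild type. This is read here as no engineered allele, and mutations that the tumours carried were not examined. Polyadenylated RNA was sequenced after 24 h in PBS or in cannabichromene (CBC, a phytocannabinoid), with 1 library for each line and treatment. CBC was given at 35 μM to MIA PaCa-2 cells and at 30 μM to PANC-1 cells, so line and dose cannot be told apart. The CBC stock was made in acetonitrile. The labels name PBS for the controls and the methods a vehicle, and whether the controls held acetonitrile is not stated.

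The libraries held 21742775 to 27903667 counts on genes. Levels are given as CPM, the count scaled to a common library size after adjustment by the trimmed mean of M-values (TMM). No comparison within a line has a replicate check. Intervals are 95% intervals from the counts, Poisson for a level and exact binomial for a fold change, and cover counting error only. Folds and intervals come from the scaled counts alone. Log2 fold changes within a line are edgeR values with a prior count of 2 added, which makes them smaller in size at low counts. A fold and the log2 fold change beside it can therefore differ slightly. In a bulk library, less RNA of a gene per cell and fewer cells that express it cannot be told apart. The keratins KRT8, KRT18 and KRT19 were abundant in every library, and the 7 epithelial and ductal markers summed to 1218 to 3490 CPM. EPCAM and CDH1, which mark cell adhesion in epithelia, had no more than 1 count in any MIA PaCa-2 library. Acinar, islet, leukocyte and endothelial marker lists summed to at most 2.20 CPM. The fibroblast list, carried by COL1A2 in MIA PaCa-2 and COL1A1 in PANC-1, went from 368 to 95.5 CPM with CBC in MIA PaCa-2 and from 134 to 46.6 CPM in PANC-1, with DCN at 0 in all 4 libraries. The epithelial list also went down in sum with CBC, from 3490 to 2558 CPM and from 2060 to 1218 CPM. KRT8, KRT18, KRT19 and MUC1 were lower in both lines. By contrast, KRT7 in MIA PaCa-2 (2 and 52 counts without and with CBC) and CDH1 in PANC-1 (32 and 131 counts) were higher. The part of these shifts in the fibroblast and epithelial lists in the results was not tested.

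CDK inhibitors restrain the kinases that drive the cell cycle. The CIP/KIP proteins p21, p27 and p57, encoded by CDKN1A, CDKN1B and CDKN1C, bind complexes of cyclins with CDK2 and other kinases. The INK4 proteins, encoded by CDKN2A to CDKN2D, bind CDK4 and CDK6 and keep them from cyclin D, so that the retinoblastoma protein RB stays active and holds back E2F factors. CDKN2A and CDKN2B lie side by side with MTAP, an enzyme of methionine salvage, in a region that is often deleted in pancreatic cancer.

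Of the 8 genes, 5 had counts in all 4 libraries. MTAP had counts only in PANC-1 cells. CDKN2A and CDKN2B had no count in any library. MIA PaCa-2 cells were thus without counts for CDKN2A, CDKN2B and MTAP, and PANC-1 cells for CDKN2A and CDKN2B. All 3 CIP/KIP genes had higher values with CBC in both lines, and both INK4 genes with counts had lower values.

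**Figure D1:**
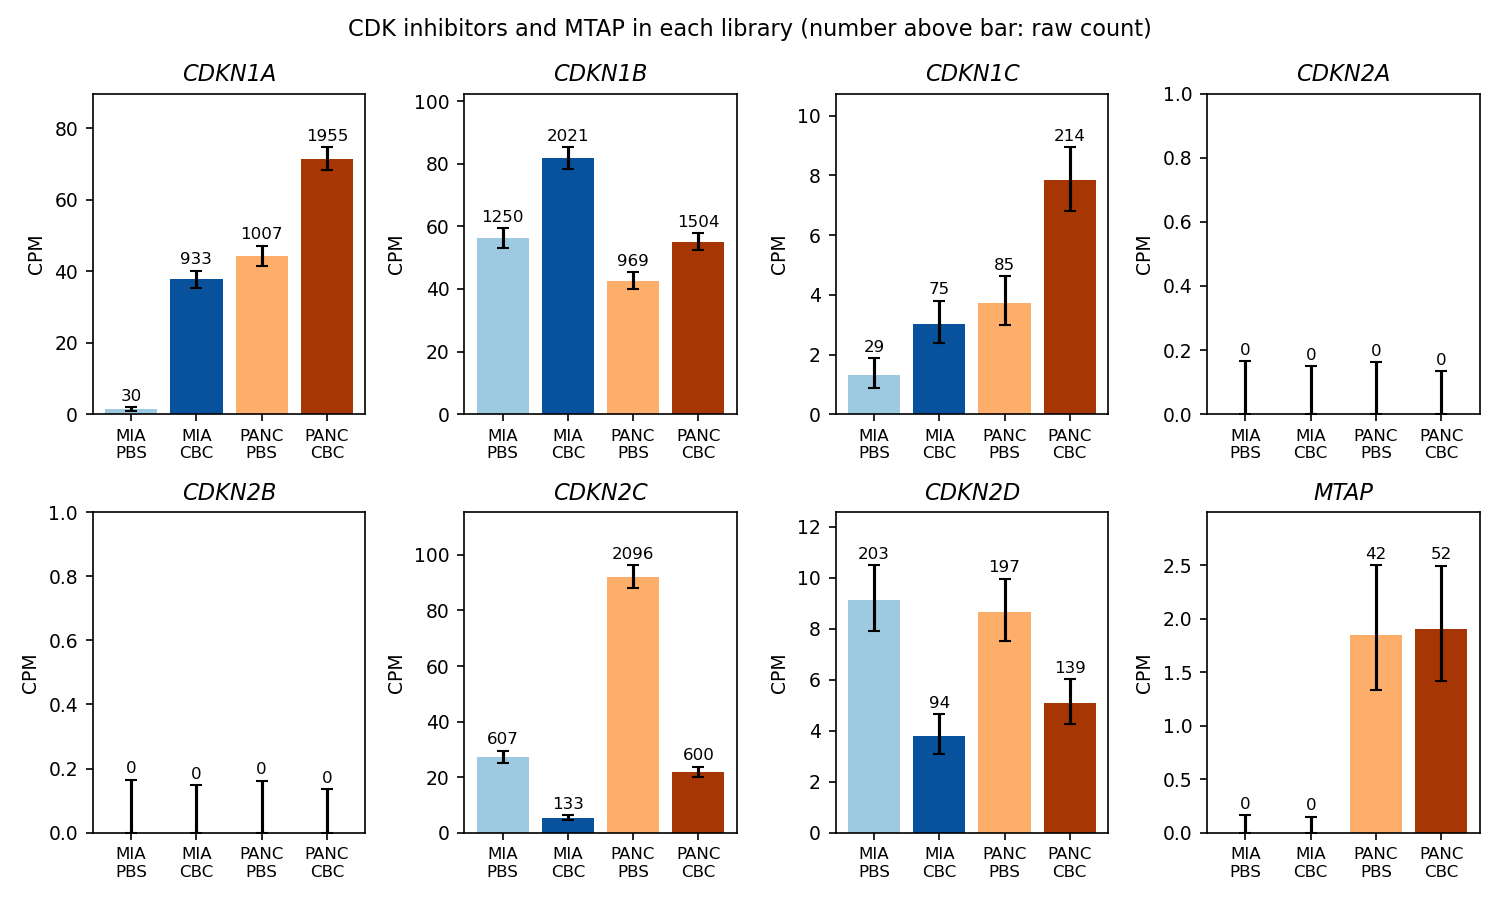
Bars show the level of each gene in CPM (linear axes from 0, scaled separately) in the 4 libraries, 1 library per bar, with 95% Poisson intervals and the raw count above each bar. CDKN1A, CDKN1B and CDKN1C are higher with CBC in each line, CDKN2C and CDKN2D are lower, and CDKN2A and CDKN2B have 0 counts throughout.

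CDKN1A (ENSG00000124762, chromosome 6, 36676460 to 36687337 on the plus strand of GRCh38) encodes p21, a broad inhibitor of cyclin-CDK complexes. MIA PaCa-2 had 30 counts under PBS and 933 under CBC, and PANC-1 had 1007 and 1955 in the same order. The MIA PaCa-2 control stood apart from the other 3 libraries, at 1.35 CPM against 37.7 to 71.5 CPM. With CBC the level was 28.0-fold higher in MIA PaCa-2 (log2 fold change 4.72, interval 4.28 to 5.38) and 1.62-fold higher in PANC-1 (0.69, interval 0.58 to 0.80). Only 0.321% of the 14001 genes tested in MIA PaCa-2 had a higher log2 fold change, against 14.1% of the 14091 tested in PANC-1. The control level was 32.8-fold higher in PANC-1 than in MIA PaCa-2, and with CBC the lines were 1.90-fold apart. The log2 fold changes of the lines differed by 4.03, and 19 of 12502 genes tested in both lines had a difference at least as large in this direction. This difference was not tested across cultures.

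The promoter windows of CDKN1A and of the INK4 genes CDKN2C and CDKN2D are shown because these 3 genes had the largest log2 fold changes, 1 upward and 2 downward, of those measured in MIA PaCa-2. Each window runs from 250 bases before to 50 bases after a RefSeq transcription start (GRCh38.p14), written 5′ to 3′ on the gene's strand, with capitals for matches to the motifs searched. These were the GC box GGGCGG, the CCAAT box CCAAT, the TATA box TATAAA and the E2F words TTTCCCGC, TTTCGCGC, TTTGCCGC and TTTGGCGC, on either strand, with overlapping matches counted.
CDKN1A, chr6:36678464-36678763, plus strand: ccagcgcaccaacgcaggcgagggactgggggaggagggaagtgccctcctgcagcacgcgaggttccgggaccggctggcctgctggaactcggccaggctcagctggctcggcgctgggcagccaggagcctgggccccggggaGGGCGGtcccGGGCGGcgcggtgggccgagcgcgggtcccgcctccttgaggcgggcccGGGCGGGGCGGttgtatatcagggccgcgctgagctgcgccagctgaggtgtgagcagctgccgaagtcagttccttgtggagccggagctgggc
CDKN2C, chr1:50969995-50970294, plus strand: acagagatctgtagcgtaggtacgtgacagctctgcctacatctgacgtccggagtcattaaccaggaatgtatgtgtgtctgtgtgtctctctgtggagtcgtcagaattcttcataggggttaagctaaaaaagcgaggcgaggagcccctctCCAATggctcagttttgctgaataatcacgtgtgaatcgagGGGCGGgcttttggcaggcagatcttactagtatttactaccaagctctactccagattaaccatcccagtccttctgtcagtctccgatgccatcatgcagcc
CDKN2D, chr19:10568930-10569229, minus strand: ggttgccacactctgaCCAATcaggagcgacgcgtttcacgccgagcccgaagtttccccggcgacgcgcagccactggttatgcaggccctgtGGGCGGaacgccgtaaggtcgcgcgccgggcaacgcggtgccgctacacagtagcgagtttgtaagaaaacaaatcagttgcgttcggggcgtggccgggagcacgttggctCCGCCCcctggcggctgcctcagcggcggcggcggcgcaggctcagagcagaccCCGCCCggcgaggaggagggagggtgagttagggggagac
The CDKN1A window had 4 GC boxes, of which the pair nearest the start share a base, and no CCAAT box. The CDKN2C window, at the start that GENCODE marks as canonical and the nearest of 3 RefSeq windows of this gene to it, had 1 GC box and 1 CCAAT box. The CDKN2D window had 3 GC boxes and 1 CCAAT box. Among 35116 RefSeq promoter windows of 300 bases, 45% held a GC box, 34.6% a CCAAT box, 11.5% a TATA box and 3.31% an E2F word. None of these 3 windows held the listed TATA or E2F letters, which says only that those letters are not in these windows. GC made up 74.3% of the CDKN1A window, 68% of that of CDKN2D and 49.3% of that of CDKN2C. Of the 8 genes, 7 had a window in the table, and CDKN1C had none.

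CDKN1B (ENSG00000111276, chromosome 12, 12685498 to 12722369) encodes p27, whose level in cells is known to be set largely by degradation of the protein. It had 1250 and 2021 counts without and with CBC in MIA PaCa-2, and 969 and 1504 counts in PANC-1. Its levels were the most even of the inhibitors across the 4 libraries, from 42.6 to 81.7 CPM, and higher with CBC by 1.45-fold in MIA PaCa-2 and 1.29-fold in PANC-1. The intervals of the log2 fold change, 0.44 to 0.64 and 0.25 to 0.49, lay above 0 and well short of a 2-fold change.

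CDKN1C (ENSG00000129757, chromosome 11, 2883213 to 2885775 on the minus strand) encodes p57 and is an imprinted gene. Counts were low, 29 and 75 without and with CBC in MIA PaCa-2 and 85 and 214 in PANC-1. CBC-treated cells were 2.33-fold higher in MIA PaCa-2 and 2.09-fold higher in PANC-1. The log2 fold changes of 1.17 and 1.05 had intervals of 0.58 to 1.89 and 0.70 to 1.45, so the counts do not place either change beyond 2-fold. CDKN1C was 2.87-fold higher in PANC-1 than in MIA PaCa-2 controls and 2.58-fold higher with CBC.

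Among the INK4 genes, CDKN2C (ENSG00000123080, chromosome 1, 50960745 to 50974634) encodes p18, an inhibitor of CDK4 and CDK6. MIA PaCa-2 had 607 counts under PBS and 133 under CBC, and PANC-1 had 2096 and 600. Both CBC libraries were below both controls on the CPM scale, at 5.38 and 21.96 against 27.3 and 92.2 CPM. The level was 5.08-fold lower with CBC in MIA PaCa-2 (log2 fold change -2.33, interval -2.63 to -2.07) and 4.20-fold lower in PANC-1 (-2.07, interval -2.20 to -1.94). Lower log2 fold changes were seen for 0.729% of tested genes in MIA PaCa-2 and 1.13% in PANC-1. PANC-1 exceeded MIA PaCa-2 by 3.38-fold in the controls and by 4.08-fold with CBC.

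CDKN2D (ENSG00000129355, chromosome 19, 10566460 to 10569059 on the minus strand) encodes p19, another INK4 inhibitor of CDK4 and CDK6. It had 203 and 94 counts without and with CBC in MIA PaCa-2, and 197 and 139 in PANC-1. The controls were alike, at 9.13 and 8.66 CPM, with a log2 ratio of PANC-1 to MIA PaCa-2 between -0.37 and 0.21. With CBC the level was 2.40-fold lower in MIA PaCa-2 (log2 fold change -1.25, interval -1.63 to -0.90) and 1.70-fold lower in PANC-1 (-0.76, interval -1.09 to -0.45). The interval in MIA PaCa-2 reaches changes smaller than 2-fold.

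**Figure D2:**
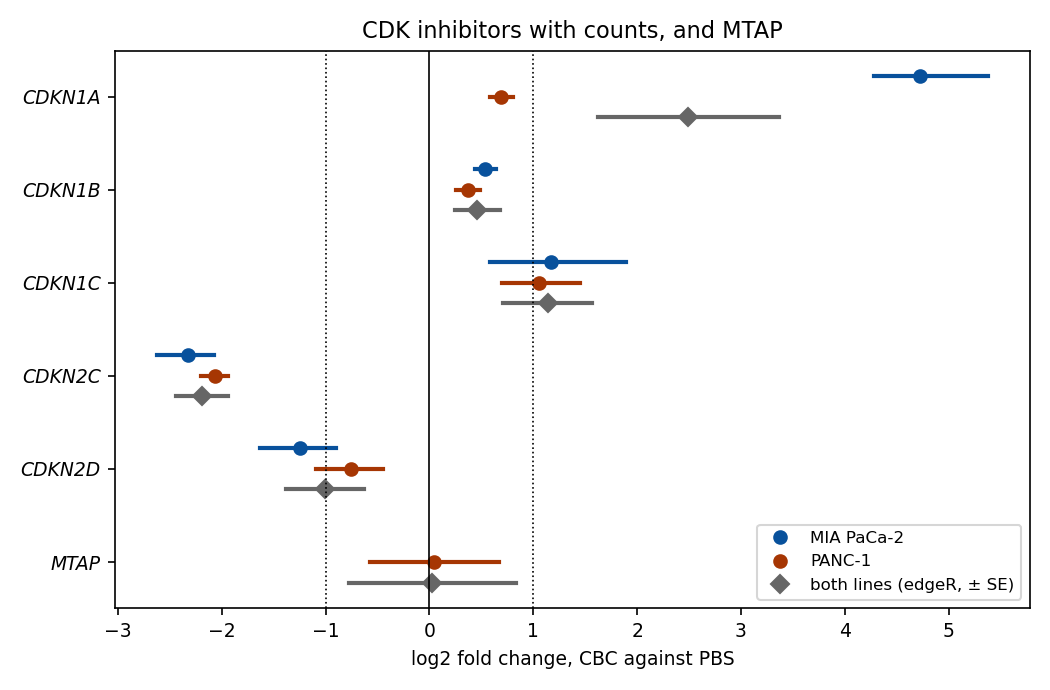
Log2 fold changes of CBC against PBS for the 6 genes with counts, with MIA PaCa-2 and PANC-1 as circles with 95% counting intervals and the edgeR estimate over both lines as diamonds ± SE. Dotted lines mark a 2-fold change. The lines lie 4.03 apart for CDKN1A and at most 0.49 apart for the other 4 inhibitors, and MTAP has a value for PANC-1 but not for MIA PaCa-2.

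Genes were called within a line when the log2 fold change passed 1 in either direction and either of its 2 libraries had 1 CPM or more. In MIA PaCa-2, 5 of the 8 genes passed the filter, of which 2 were higher (CDKN1A and CDKN1C; background 11.5% of tested genes) and 2 lower (CDKN2C and CDKN2D; background 8.97%). In PANC-1, 6 passed the filter, of which CDKN1C was higher (background 7.71%) and CDKN2C lower (background 7.03%). In either direction these were 4 of 5 tested genes in MIA PaCa-2 (background 20.5%) and 2 of 6 in PANC-1 (background 14.7%). The median log2 fold change of the tested genes of the set was 0.54 in MIA PaCa-2 and 0.20 in PANC-1, beside -0.01 and 0.02 over all tested genes, and joins genes that moved in opposite directions.

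The only replication of the treatment is the second line. The quasi-likelihood test of edgeR was therefore run on the 4 libraries together, with the line as a block and 1 residual degree of freedom. It tests the mean effect of CBC against a spread that includes how far the 2 lines differed. That spread also draws on all tested genes, so an SE or p-value does not by itself measure how far the lines agree for a gene. Of the 6 genes tested, only CDKN2C was called, against 4.71% of 16381 genes. CDKN2C fell by 2.20 on the log2 scale (SE 0.25, adjusted p = 0.00865, edgeR) and was lower in both lines. CDKN1A had a log2 fold change of 2.49 with an SE of 0.87 (adjusted p = 0.154, edgeR). It was higher in both lines, and the estimate lies between the 2 very different values of the lines. Under DESeq2 it was called, at an adjusted p of 0.0299. With no filter on low counts edgeR called CDKN1A as well (adjusted p = 1.88e-11). The log2 fold change without the filter was again 2.49, and the lines stood at 4.72 and 0.69 as before. The lower p-value therefore does not show closer agreement between the lines. What made it lower was not tested. CDKN1C (log2 fold change 1.14, SE 0.43), CDKN2D (-1.01, SE 0.38) and CDKN1B (0.46, SE 0.22) had adjusted p-values of 0.180, 0.181 and 0.277 in edgeR's test, each with the same direction in both lines. MTAP entered the test on its PANC-1 counts, since both MIA PaCa-2 libraries were at 0, and had a log2 fold change of 0.03 with an SE of 0.80.

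Levels of different genes were compared per kilobase of merged exons. In PANC-1 the highest of the inhibitors was CDKN2C in the control, at 30.5 CPM per kilobase (29.2 to 31.9), above CDKN1A at 14.8 (13.9 to 15.7), CDKN2D at 5.76 (4.98 to 6.62), CDKN1B at 4.605 (4.32 to 4.90) and CDKN1C at 1.51 (1.204 to 1.86), with no overlap between neighbours. With CBC the order of these 2 genes was the opposite, with CDKN1A at 23.9 (22.8 to 25.0) and CDKN2C at 7.28 (6.70 to 7.88). CDKN2C and CDKN1B, at 5.95 (5.65 to 6.26), followed CDKN1A, and CDKN2D, at 3.38 (2.84 to 3.99), and CDKN1C, at 3.16 (2.75 to 3.61), overlapped. In the MIA PaCa-2 control CDKN2C led at 9.04 CPM per kilobase (8.34 to 9.79), CDKN1B and CDKN2D were not separable at 6.07 each, and CDKN1C and CDKN1A were at 0.53 and 0.45 with overlapping intervals. With CBC in MIA PaCa-2 the order was CDKN1A at 12.6 (11.8 to 13.4), CDKN1B at 8.83 (8.45 to 9.22), CDKN2D at 2.53, CDKN2C at 1.78 and CDKN1C at 1.22. The intervals of these last 3 overlap between neighbours. CDKN1B has 9255 merged exon bases and a longest transcript of 4335 bases, and per kilobase of longest transcript it came first in both MIA PaCa-2 libraries, at 13.0 and 18.8, ahead of CDKN2C at 9.40 and CDKN1A at 16.6. In PANC-1 the order of CDKN1A and CDKN2C was the same by either length. By longest transcript CDKN1B passed CDKN2D in the control, at 9.83 against 6.08, and passed CDKN2C with CBC, at 12.7 against 7.56.

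CDKN2A (ENSG00000147889, chromosome 9, 21967752 to 21995301 on the minus strand) encodes p16 and ARF, and CDKN2B (ENSG00000147883, 22002903 to 22009305, same strand) encodes p15. With 0 counts in every library, each could have been present at up to 0.110 to 0.135 CPM, the one-sided limit that 3 counts set. Merged exons of CDKN2A cover 3885 bases, and 84.7% of them overlap no other counted gene's exon, while the 4000 bases of CDKN2B have no such overlap. No change with CBC could be measured for either gene. Zero RNA from a deleted gene and from a silent one cannot be told apart in these data.

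MTAP (ENSG00000099810, chromosome 9, 21802636 to 21937651 on the plus strand) had 42 and 52 counts without and with CBC in PANC-1, or 1.85 and 1.90 CPM. The CBC and control levels of PANC-1 did not differ beyond counting error (log2 fold change 0.04, interval -0.57 to 0.67). Against the limit of 3 counts per library, and without the counting error of its own counts, MTAP was at least 13.7-fold higher in PANC-1 than in MIA PaCa-2 in the controls and at least 15.7-fold higher with CBC. It had the lowest level of any of the 6 genes per kilobase in PANC-1, at 0.13 in both libraries. Of its 14527 merged exon bases, 92.1% lie outside the exons of same-strand neighbours such as ENSG00000264545, a long non-coding RNA with the same start. How reads on the shared bases were counted is not stated, and its part in the level was not tested.

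Genes along chromosome 9 were then read in order, to see how far the absence of counts reached. The annotation places 104 counted genes within 3 Mb of CDKN2A on either side, 34 of them protein-coding. In MIA PaCa-2, 93 of the 104 had no count in either library, among them 28 of the protein-coding genes, and in PANC-1 72 had none. Of all 58233 genes, 56.8% were without a count in MIA PaCa-2 and 56.7% in PANC-1. Within the window, 21 genes had counts in PANC-1 and none in MIA PaCa-2, and 0 genes had the opposite pattern. The shares of all genes with either pattern were not computed. Of the 19 window genes with at least 1 CPM in both PANC-1 libraries, 12 had no count in MIA PaCa-2. Over the autosomes this held for 344 of 12569 such genes (2.74%), a share chosen after the values were seen.

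In MIA PaCa-2 the genes without counts formed a long stretch. The last gene with counts before CDKN2A was ENSG00000260912 (19453209 to 19455173), a long non-coding RNA with 18 and 46 counts without and with CBC. Close by, RPS6, a ribosomal protein gene, had 17153 and 19275 counts. From there 96 consecutive genes had 0 counts in both MIA PaCa-2 libraries, and the next gene with a count was CAAP1 (26840685 to 26892803), an apoptosis inhibitor gene, with 447 and 454. The stretch between them spans 7.39 Mb and holds CDKN2A, CDKN2B and MTAP. Many of its genes had no count in PANC-1 either, among them all genes between ENSG00000260912 and MLLT3 (from 20341669). The edge on that side is therefore not placed closely.

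In PANC-1 the stretch was far shorter. MTAP itself was the gene nearest to CDKN2A with a count on one side. On the other side DMRTA1, a transcription factor gene, had 438 and 443 counts. Between these, 9 genes over 0.509 Mb had no count, among them CDKN2A, CDKN2B and the antisense RNA CDKN2B-AS1. FOCAD (904 and 954 counts) and KLHL9 (1297 and 1652 counts), an adaptor of a ubiquitin ligase, lie on the far side of MTAP and had 0 counts in MIA PaCa-2. HACD4, MLLT3, LINC01239, ENSG00000224549 and ENSG00000283982 showed the same pattern of counts in PANC-1 alone, at 2.20 to 22.7 CPM in PANC-1.

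Of the neighbours with at least 1 CPM in a PANC-1 library, most were within 2-fold with CBC, as MTAP was. Between the last gene counted in MIA PaCa-2 and the far end of the window, those past 2-fold were MIR31HG, the host gene of the microRNA miR-31, and IFNE, an interferon gene that lies inside the MIR31HG span on the same strand. MIR31HG had 306 and 805 counts without and with CBC (log2 fold change 1.13, interval 0.94 to 1.32), and IFNE had 63 and 210 counts (1.44, interval 1.06 to 1.90). SNORD39, in the same span, had 65 and 126 counts and a log2 fold change of 0.67. These 3 genes overlap, so their reads are uncertain as separate measures. PLIN2, a lipid droplet gene on the counted side of the stretch, was past 2-fold in PANC-1 with 520 and 1575 counts, and had 845 and 2153 in MIA PaCa-2. RRAGA, HAUS6, DENND4C, RPS6 and ACER2, on the same side, had counts in all 4 libraries and stayed within 2-fold in both lines.

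**Figure D3:**
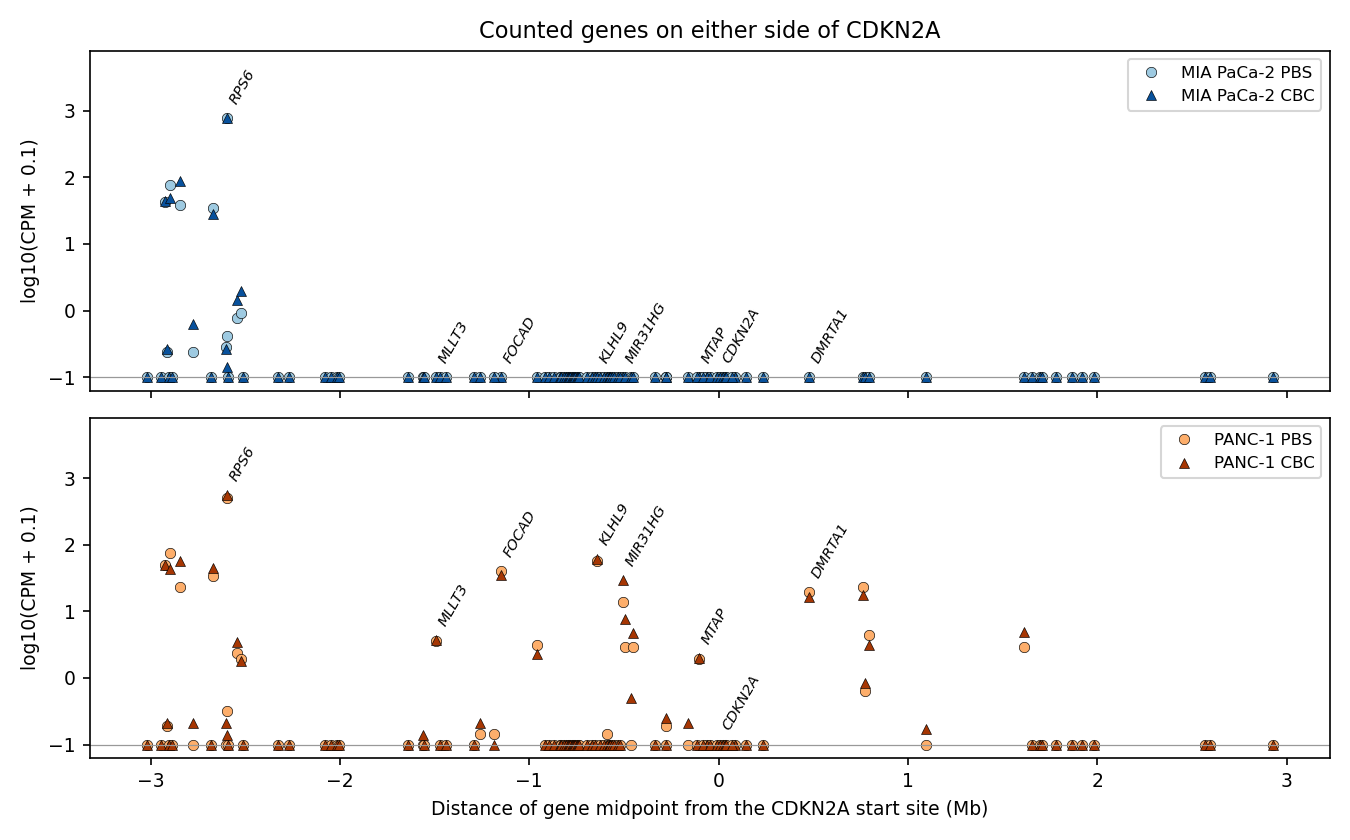
Each point is a counted gene within 3 Mb of CDKN2A, at the distance of its midpoint from the CDKN2A start in Mb, with its level as log10(CPM + 0.1) in the PBS (circles) and CBC (triangles) library of MIA PaCa-2 (top) and PANC-1 (bottom), and the grey line marks a level of 0. In MIA PaCa-2 all genes to the right of ENSG00000260912 lie on the line, while in PANC-1 FOCAD, KLHL9, MIR31HG, MTAP and DMRTA1 lie above it and CDKN2A on it.

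The targets and regulators of these inhibitors were read from 6 lists of 72 genes in all. They hold targets of the inhibitors, genes for regulation and turnover of the inhibitors, and the salvage pathway of MTAP with genes linked to it. The lists were chosen with earlier results of these data known. In the list of kinases, CDK1 and CDK2 fell with CBC over both lines. CDK2, the main target of p21 and p27, fell by 1.82 on the log2 scale (SE 0.23, adjusted p = 0.0112, edgeR), from 1634 to 535 counts in MIA PaCa-2 and from 2366 to 763 in PANC-1. CDK1 fell by 1.33 (SE 0.21, adjusted p = 0.0181, edgeR). CDK4, the main target of the INK4 proteins, had 3399 and 3400 counts in MIA PaCa-2 and 4198 and 4148 in PANC-1 and was not called (adjusted p = 0.592, edgeR). CDK6 was not called either (log2 fold change -0.75, adjusted p = 0.164, edgeR), with -0.29 in MIA PaCa-2 and -1.22 in PANC-1. Of the 7 genes of the list, edgeR called 2 lower and 0 higher. The shares to set beside this list and those below are 2.45% lower and 2.26% higher of all 16381 tested genes. For an unadjusted p under 0.05 they are 10.4% and 10.6%. At an unadjusted p under 0.05, edgeR had 0 genes higher in the lists of kinases, of RB and E2F genes and of CIP/KIP turnover. It had 3, 5 and 3 lower in them, and DESeq2 called 2, 5 and 2 lower and 0 higher. Within MIA PaCa-2, CDK7 was past 2-fold higher, at a log2 fold change of 1.23 (interval 1.12 to 1.34). In PANC-1 CDK7 was at 0.09 (interval -0.01 to 0.18).

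Among the 8 cyclin genes, edgeR called 4 lower and 1 higher (7 lower and 1 higher at an unadjusted p under 0.05). DESeq2 called 6 lower and 1 higher. CCNA2, CCNE2 and CCND3, partners of CDK2 and of CDK4 and CDK6, fell, with log2 fold changes of -1.43, -2.15 and -1.34 and adjusted p-values of 0.0168, 0.0213 and 0.0230 in edgeR's test. CCND2, another D-type cyclin, rose from 1 to 400 counts in MIA PaCa-2 and from 2 to 56 in PANC-1 (adjusted p = 0.0122, edgeR). Its controls were close to 0, and the intervals of the log2 ratio run from 6.004 to 13.8 and from 2.62 to 7.62. CCND1 was not called (log2 fold change -0.78, adjusted p = 0.0859, edgeR). In the list of 13 RB and E2F genes, edgeR called 5 lower and 0 higher. Among the 5 were E2F1, E2F2, E2F8 and TFDP1, which drive or tune entry into S phase. E2F1 had 2035 counts under PBS and 578 under CBC in MIA PaCa-2, and 1953 and 431 in PANC-1, a log2 fold change of -2.20 (adjusted p = 0.00841, edgeR). The log2 fold changes of E2F2, E2F8 and TFDP1 were -2.85, -2.43 and -1.38, with adjusted p-values of 0.0171, 0.0147 and 0.0169 in the same edgeR test.

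Among 10 genes for turnover of CIP/KIP proteins, edgeR called 2 lower and 0 higher. SKP2, the ubiquitin ligase subunit that targets p27, fell by 1.80 (SE 0.25, adjusted p = 0.0144, edgeR), from 1814 to 499 counts in MIA PaCa-2 and from 851 to 340 in PANC-1. DTL, a receptor for the ligase that targets p21, fell by 1.21 (SE 0.21, adjusted p = 0.0246, edgeR). In the list of 20 transcriptional regulators, 4 rose and none fell by edgeR (7 higher and 1 lower at an unadjusted p under 0.05), and DESeq2 called 5 higher and 1 lower. These were DDIT3, KLF4, KLF6 and ATF4, stress and zinc finger factors, with log2 fold changes of 3.74, 1.71, 1.47 and 1.27 and adjusted p-values of 0.00597, 0.0150, 0.0252 and 0.0229 in edgeR's test. MDM2, which encodes a ubiquitin ligase, had 1844 and 5720 counts in MIA PaCa-2 and 3364 and 3454 in PANC-1, or log2 fold changes of 1.48 and -0.23.

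The list of 14 genes named for purine and methionine salvage, the pathway of MTAP, also holds genes of linked pathways. These are PRMT5, WDR77, MAT2A, MAT2B, SMS, SRM and AMD1. The list had 0 calls over both lines in edgeR's test. At an unadjusted p under 0.05 edgeR had 5 genes lower and 0 higher, and DESeq2 called 3 lower and 0 higher. Of all tested genes, 10.4% were lower and 10.6% higher at that unadjusted p, and DESeq2 called 5.6% lower and 4.56% higher. PRMT5, an arginine methyltransferase known to be sensitive to the substrate of MTAP, had 120 CPM under PBS and 105 under CBC in MIA PaCa-2, and 119 and 99.3 CPM in PANC-1 (adjusted p = 0.592, edgeR). MAT2A, which makes S-adenosylmethionine, had log2 fold changes of -0.39 in both lines (adjusted p = 0.248, edgeR). Over both lines the medians were -0.93 for the cyclins, -0.30 for the RB and E2F genes, -0.40 for CIP/KIP turnover, -0.21 for the kinases, 0.31 for the regulators and -0.30 for salvage, beside 0.02 for all 16381 genes tested. In all 6 lists, 5 genes were called higher (background 2.26%) and 13 lower (background 2.45%).

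**Figure D4:**
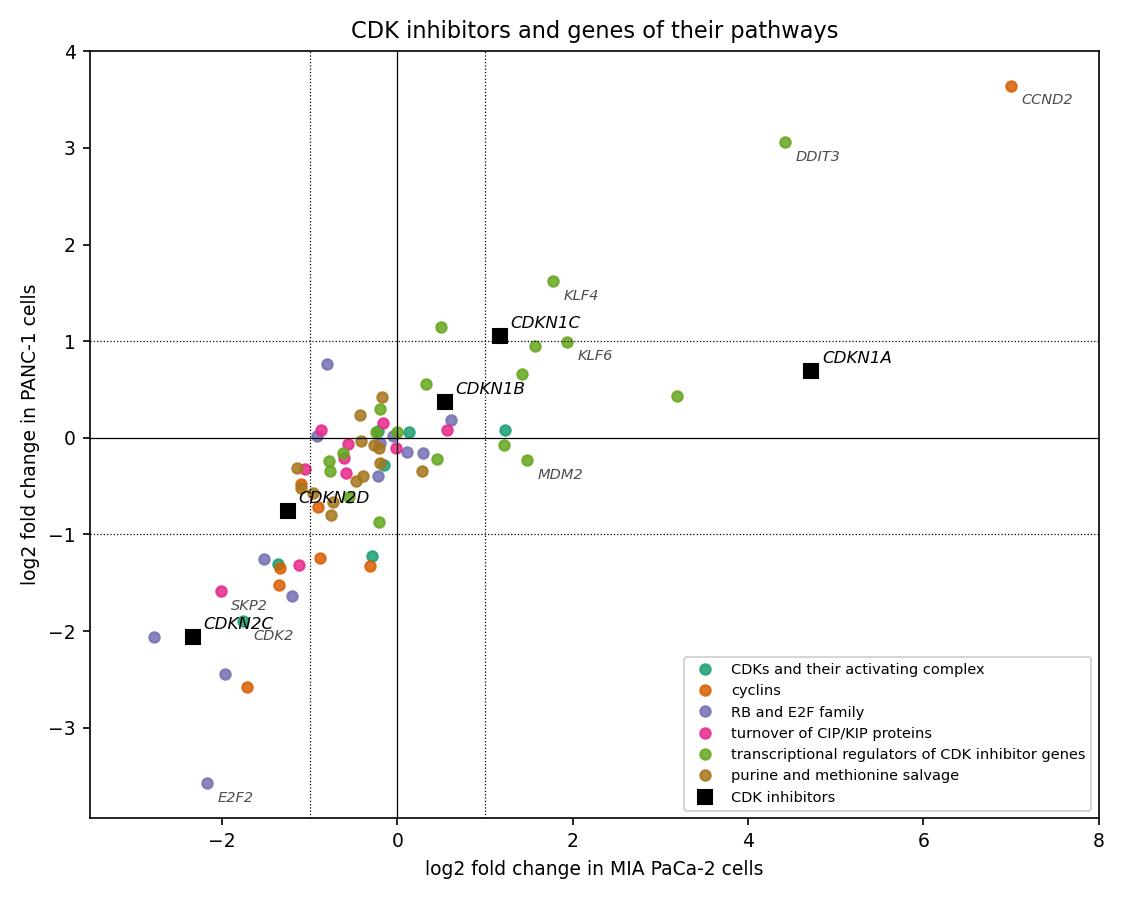
Each point is a gene of the 6 lists (colours) that passed the filter in both lines, or a CDK inhibitor with counts (black squares), at its log2 fold change of CBC against PBS in MIA PaCa-2 (x axis) and PANC-1 (y axis), with dotted lines at a 2-fold change. CDKN2C sits with CDK2, SKP2 and E2F2 in the lower left, and CDKN1A lies to the right at 4.72 in MIA PaCa-2 and 0.69 in PANC-1.

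The genes with the most similar pattern were sought by the distance between log2 CPM values centred on their mean over the 4 libraries, among 9715 protein-coding genes averaging 10 CPM or more. The nearest to CDKN1A were PHLDA3 (distance 0.62), GEM (1.09) and GAB2 (1.10). PHLDA3 had 19 and 348 counts without and with CBC in MIA PaCa-2 and 433 and 1074 in PANC-1. For CDKN2C they were LFNG, ARHGEF39 and SCARA3, at distances of 0.59 to 0.64. The nearest to CDKN2D were LNPK, LSM6 and CENPE, a mitotic kinesin gene, at 0.06 to 0.09. CDKN1B lay nearest to ZNF623, NT5C3A and ATP6V0B at 0.05 to 0.08, and CDKN1C to ZFP69B, OCLN and PCGF5 at 0.16 to 0.20. With 4 libraries, 1 per line and treatment, these distances are a description only.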

How the data were processed

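Polyadenylated RNA of 4 libraries was sequenced, 1 per line and treatment. Per the labels and the study's methods, the authors used cutadapt 2.7 for trimming, STAR for alignment to GRCh38 and HTSeq for counts of reads on Ensembl genes. Aligner version, strand setting and counting mode are not given in the sources used here. The deposited counts are raw and unfiltered. The deposited signal is a CPM on TMM-scaled library sizes and matched the counts to a relative difference of 6.84e-09.

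Symbols matched 57392 of 58233 identifiers. Positions and exon lengths came from GENCODE release 44 on GRCh38, another annotation release than the authors used on the same build. For log2 fold changes, edgeR 4.0.16 was run in R 4.3.3 with TMM scaling and a prior count of 2. Exact binomial and Poisson intervals were computed with scipy 1.17.1. The p-values over both lines come from edgeR's quasi-likelihood test with Benjamini-Hochberg adjustment over all tested genes. That test was also run on simulated data with the same change in both lines. Such data cannot check the p-values of genes whose lines differ. Standard errors are the log2 fold change divided by the root of the F statistic. The line block pairs libraries of the same line, whose deviations from the treatment means correlated at 0.923 across 16381 genes. Alternatives changed scaling, prior count, filter, block, tool (DESeq2 1.42.0), exon length and window.

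The genes and lists were chosen with earlier results of these data known. Named genes are the 8 chosen genes, neighbours with at least 1 CPM in any library or between 2 of the chosen genes, up to 4 called genes per list with fixed others (MDM2, CDK2, CDK4, CDK6, CCND1, PRMT5, MAT2A), and 3 genes of most similar pattern per inhibitor. CAAP1, TUSC1, E2F7 and CDK7 lie outside the rule and were named after their values were seen. A further gene of that rule is not reported here. RefSeq promoter windows are from GRCh38.p14.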

Additional observations from a re-analysis of the deposited data

Results flagged for a closer look

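MDM2 was higher with CBC in MIA PaCa-2, at a log2 fold change of 1.48 (interval 1.40 to 1.56), and lower in PANC-1, at -0.23 (interval -0.30 to -0.16). DENND4C, a gene on the counted side of the 9p21 stretch, was at -0.31 in MIA PaCa-2 (interval -0.46 to -0.16) and 0.40 in PANC-1 (interval 0.27 to 0.54). Of the genes named in the comparisons above, these are the ones whose counting intervals in the lines lie on opposite sides of 0. Of the 71 list genes tested in both lines, 10 besides MDM2 met the same condition, among them E2F7 at -0.81 in MIA PaCa-2 and 0.76 in PANC-1. How many of all 12502 genes tested in both lines met it was not counted. The number is therefore a description only, and the intervals cover counting error alone. With 1 library per line and treatment, none of these differences between the lines was tested.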

How the results depend on the processing

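The counts of the 8 genes past 2-fold in each line and direction were the same under all 8 alternatives run within the lines (scaling, prior count, filter and the deposited CPM). Of the genes called over both lines, CDKN2C alone was called by edgeR, 2 of the 8 were called with DESeq2 and 2 with no filter on low counts, the second being CDKN1A in both cases. Without the replicate block the test called 0 of the 8 and 0 of all genes (354 at an unadjusted p under 0.05, 0 of the 8), and the paired fit with the line as block is the one reported. Over all genes the calls were 771 in edgeR, 1371 with DESeq2 and 2063 with no filter. For CDKN2C the adjusted p ran from 1.00e-11 to 0.0138 over the 4 alternatives that kept the block, and for CDKN1A from 1.88e-11 to 0.179. The lowest value of each came with no filter on low counts, and does not measure how far the lines agree. MTAP went from 0.03 to -0.032 on the log2 scale with DESeq2, and the cause was not tested. A window of 1 Mb held 60 genes, of which all 60 were without a count in MIA PaCa-2 and 44 in PANC-1. In the window of 3 Mb these were 93 and 72 of 104 genes. Leaving out a library from the test over both lines leaves no residual degrees of freedom and was not run. Depth limits CDKN1C and MTAP most, with fewer than 100 counts in most libraries.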

Other observations

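The stretch without counts in MIA PaCa-2 was set against the rest of the autosomes, a comparison chosen after its values were seen. Of 12569 autosomal genes with at least 1 CPM in both PANC-1 libraries, 344 (2.74%) had no count in either MIA PaCa-2 library. Read in chromosome order, 13 of these followed each other without a break from MLLT3 through MTAP to TUSC1. The next longest such run on any autosome had 6 genes. The genes entered through their PANC-1 level, and runs in the opposite direction were not sought. The 13 are not all separate measures, since MIR31HG, IFNE and SNORD39 overlap and ENSG00000224549 lies inside the LINC01239 span. The run lengths are a description only.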
